A study of Mus musculus with 12 samples.

Results

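The genes described here are 43 genes of DNA replication and of the step from G1 into S phase, out of 41214 genes in an expression table of endothelial cells sorted from embryonic mouse hearts. They were chosen by symbol, and all 43 were found by their Ensembl identifier. They comprise 10 genes of origin recognition and helicase loading, 6 of helicase activation, 8 of the polymerases and primase, 8 of the sliding clamp and lagging strand, 4 of nucleotide supply, 4 of chromatin and histone supply, and 3 regulators of G1/S.

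The study sorted 2 endothelial populations from ventricles at 2 stages. E17 coronary (2 libraries) and E17 endocardial (2 libraries) cells came from embryos of genotype Nes-Gfp(Tg/0) that carried an inducible Cre, Nes-CreER(Tg/0), and a reporter, R26(tom/+), which were collected at E17.5 and had received 0.1 ug of tamoxifen 2 days earlier. E13 coronary (4 libraries) and E13 endocardial (4 libraries) cells came from Nes-gfp(Tg/0) embryos collected at E13.5, for which the labels name neither the inducible Cre nor the tomato reporter. All groups thus share the Nes-gfp transgene, which expresses green fluorescent protein (GFP) from regulatory elements of nestin, and all sorted cells were viable, negative for Ter119 and CD45 and positive for CD31. The coronary gate at E13 took GFP-positive cells, and the endocardial gate asked for low GFP with high Emcn (endomucin). At E17 an arterial and capillary coronary gate and a venous coronary gate are described, and which one gave the 2 libraries is not stated. The E17 endocardial gate is described as GFP-positive. Stage therefore cannot be told apart from the added transgenes, the tamoxifen or the batch label, of which each value holds 1 coronary and 1 endocardial library of 1 stage. Whether replicates stem from separate litters is not stated, so a p-value here reflects only the variation among libraries, which may be technical.

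Library totals ran from 14973633 to 27360653 expected counts. The 5 endocardial markers (such as Npr3 and Emcn) summed to 362 to 387 CPM (counts relative to the TMM-scaled size of each library) in E17 coronary and 6217 to 6753 CPM in E17 endocardial libraries, and to 1049 to 1310 CPM in E13 coronary and 4812 to 5130 CPM in E13 endocardial libraries. The 5 coronary markers (such as Cldn5 and Nes) summed to 4750 to 5909 CPM in E17 coronary and 252 to 301 CPM in E17 endocardial libraries, and to 935 to 1639 CPM in E13 coronary and 276 to 338 CPM in E13 endocardial libraries. The sums of both marker lists separated the populations in the direction of their labels at both stages. Not every marker did so: Nfatc1, of the endocardial list, averaged 231 CPM in E13 coronary and 216 CPM in E13 endocardial libraries, with overlap. Emcn, and Nes through its GFP transgene, were themselves used by the gates.

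Replication starts where the origin recognition complex, with Cdc6 and Cdt1, loads the ring-shaped Mcm helicase on DNA in G1. In S phase Cdc45, the GINS proteins and Mcm10 turn the ring into an active helicase, and polymerases copy the strands with the help of the clamp Pcna. Many of these genes are known targets of E2F transcription factors, which are released from retinoblastoma family proteins when cyclin-dependent kinases become active, so their messenger RNA is commonly read as a mark of cells that have entered the cycle.

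Because members moved together, their promoter windows were read for E2F words. Windows of 300 bases, from 250 before to 50 after the RefSeq gene start, were in the RefSeq table (GRCm38.p6) for 35 of the 43 members. The words searched on both strands were TTTCCCGC, TTTCGCGC, TTTGCCGC and TTTGGCGC, which can overlap each other. The set below shows 5 members of helicase loading that hold a word, in capitals, and Ccne1, the 1 member lower in coronary cells at E13, whose window holds none. Each is written in the direction of the gene, so a word on the other strand appears as its reverse complement.
Orc1, chr4:108579204-108579503, plus strand: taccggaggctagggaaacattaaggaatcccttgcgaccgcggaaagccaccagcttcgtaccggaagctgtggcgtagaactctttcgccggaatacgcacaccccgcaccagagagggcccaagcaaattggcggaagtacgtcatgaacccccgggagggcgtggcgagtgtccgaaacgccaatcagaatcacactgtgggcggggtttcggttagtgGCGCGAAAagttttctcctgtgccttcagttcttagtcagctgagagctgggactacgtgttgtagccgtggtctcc
Mcm3, chr1:20820263-20820562, minus strand: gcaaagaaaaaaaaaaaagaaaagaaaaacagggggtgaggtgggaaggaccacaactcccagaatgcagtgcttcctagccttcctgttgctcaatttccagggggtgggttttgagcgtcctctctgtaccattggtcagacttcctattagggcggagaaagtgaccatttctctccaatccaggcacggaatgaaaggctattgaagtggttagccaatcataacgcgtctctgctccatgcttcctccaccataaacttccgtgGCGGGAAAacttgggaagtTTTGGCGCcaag
Mcm5, chr8:75109259-75109558, plus strand: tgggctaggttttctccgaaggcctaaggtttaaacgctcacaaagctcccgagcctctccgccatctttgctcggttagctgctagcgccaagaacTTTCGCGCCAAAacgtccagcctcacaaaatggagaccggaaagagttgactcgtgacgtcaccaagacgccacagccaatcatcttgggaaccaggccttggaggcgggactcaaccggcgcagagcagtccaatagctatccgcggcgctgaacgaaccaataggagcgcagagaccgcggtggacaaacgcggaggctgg
Mcm6, chr1:128359656-128359955, minus strand: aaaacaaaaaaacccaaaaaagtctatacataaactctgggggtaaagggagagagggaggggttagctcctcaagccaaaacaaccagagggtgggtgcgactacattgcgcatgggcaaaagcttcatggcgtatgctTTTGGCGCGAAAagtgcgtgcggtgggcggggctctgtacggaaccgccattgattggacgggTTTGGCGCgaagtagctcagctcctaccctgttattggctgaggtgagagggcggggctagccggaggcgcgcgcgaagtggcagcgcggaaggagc
Mcm7, chr5:138171834-138172133, minus strand: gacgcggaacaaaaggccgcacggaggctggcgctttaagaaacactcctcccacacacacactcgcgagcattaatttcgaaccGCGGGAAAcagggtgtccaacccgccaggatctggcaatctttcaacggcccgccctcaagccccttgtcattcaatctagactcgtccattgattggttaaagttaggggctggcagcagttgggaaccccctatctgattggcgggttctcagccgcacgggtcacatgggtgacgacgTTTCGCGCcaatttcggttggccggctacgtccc
Ccne1, chr7:38107441-38107740, minus strand: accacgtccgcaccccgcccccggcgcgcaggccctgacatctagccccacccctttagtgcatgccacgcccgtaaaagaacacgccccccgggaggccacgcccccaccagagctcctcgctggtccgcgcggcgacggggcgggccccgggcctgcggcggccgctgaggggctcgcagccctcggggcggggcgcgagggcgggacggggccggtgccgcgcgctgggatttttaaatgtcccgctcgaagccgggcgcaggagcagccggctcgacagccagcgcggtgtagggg

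Positions are counted from the RefSeq gene start of each window, whose first base is 0. In Mcm6 a pair of overlapping words covered bases -110 to -99, and a further word lay at -47 to -40. In Mcm5 overlapping words covered -153 to -142, in Mcm3 the words lay downstream of the start at 19 to 26 and 38 to 45, and in Orc1 the word lay at -27 to -20. Mcm7 has a second window in the table, not printed, which holds none. An E2F word was found in 14 of the 35 members (40.0%), against 2.6% of the 27025 genes with a window in the table. By window, the shares were 34.1% of 41 windows of members and 2.26% of 32851 windows of all genes. The 24 mitosis and G2/M genes with a window, a list of a later phase of the cycle, included 1 with such a word (4.17%). CCAAT occurred in 60.0% of the members, 79.2% of the mitosis genes and 41.1% of all genes, and TTTGAA, the core of the element called CHR, in 14.3%, 75.0% and 20.2%. Of the 20 E2F words in members, 13 lay at least in part within 100 bases of the start. E2f1 and Rrm2 had windows without any of the 4 words. The E2f1 window, chr2:154569377-154569676 on the minus strand, lies inside the gene, whose GENCODE start is at 154569892. The bases just before that start were thus not read for E2f1. In Mcm7, Cdc6, Lig1 and Uhrf1 the window that holds a word also lies inside the gene. Their distances are thus from a RefSeq start downstream of the GENCODE one. A match is a description of the letters, and the absence of one says only that these letters are not in this window.

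**Figure D1:**
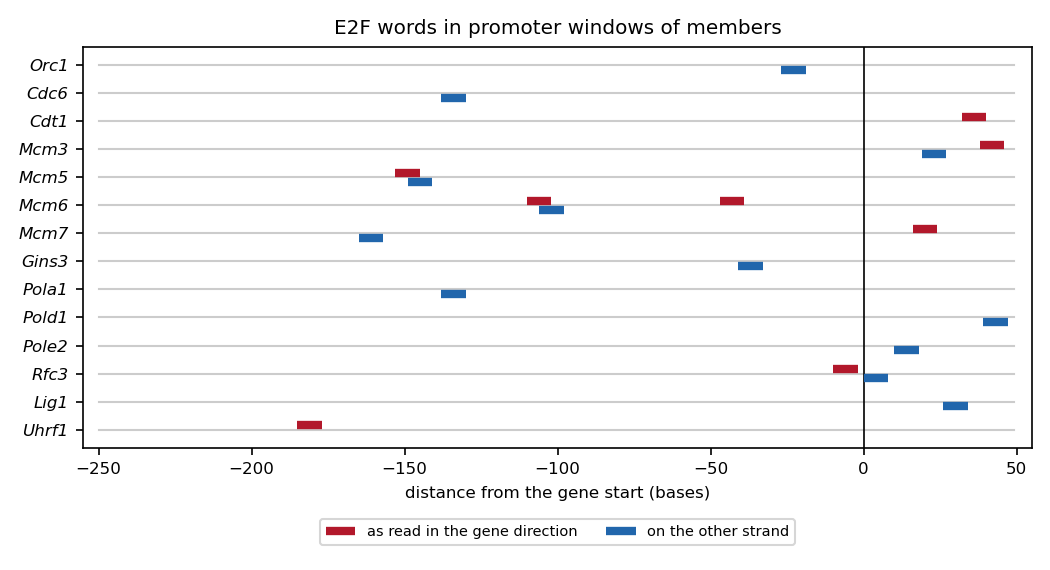
Position of each E2F word (bar, 8 bases long) in the promoter windows of the 14 members that hold one, as distance in bases from the RefSeq gene start of the window (vertical line). Red bars are words read in the direction of the gene and blue bars words on the other strand. Of the 20 words, 13 lie at least in part within 100 bases of the start.

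At E17 the median coronary minus endocardial log2 fold change was 0.85 for the 14 members with a word and 1.05 for the 21 whose window held none, and at E13 it was 0.35 and 0.46. For the change from E13 to E17 the medians were -0.67 and -0.48 in endocardial cells and -0.18 and -0.08 in coronary cells, and for the stage change of the population difference 0.41 and 0.47. These medians are descriptions without a test, and the 21 members without a word include E2f1, whose window lies inside the gene. The 14 with a word include Mcm7, Cdc6, Lig1 and Uhrf1, whose windows with a word also lie inside the gene. Ccne1 is not the only member that did not follow the others: Rfc3, which passed neither population test, holds 2 words in its window.

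Across the 4 groups the members were highest in coronary and lowest in late endocardial cells. The mean of E17 endocardial libraries was the lowest of the 4 group means for all 43 members. For Ccne1, Rfc3, Pcna and Pold2 this rested on replicate 1. Replicate 2 had 16.9 CPM for Ccne1 and 24.8 CPM for Rfc3, above the E17 coronary means of 14.1 and 24.6 CPM. It had 175 CPM for Pcna and 32.5 CPM for Pold2, above the E13 endocardial means of 169 and 32.3 CPM. The highest mean was in E13 coronary libraries for 27 members, in E17 coronary libraries for 14 and in E13 endocardial libraries for 2, Rfc3 and Ccne1. The shares of all genes with these orders were not computed. Summed over the 43 genes, expression was 3188 and 3177 CPM in E17 coronary libraries and 1605 and 1950 CPM in E17 endocardial libraries. At E13 the sums were 3532, 3371, 3303 and 3467 CPM in coronary libraries and 2704, 2666, 2453 and 2512 CPM in endocardial libraries. The groups did not overlap at either stage, and the endocardial sums at E17 lay below all those at E13. In bulk libraries, fewer cells that express a gene and less RNA per expressing cell cannot be told apart.

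**Figure D2:**
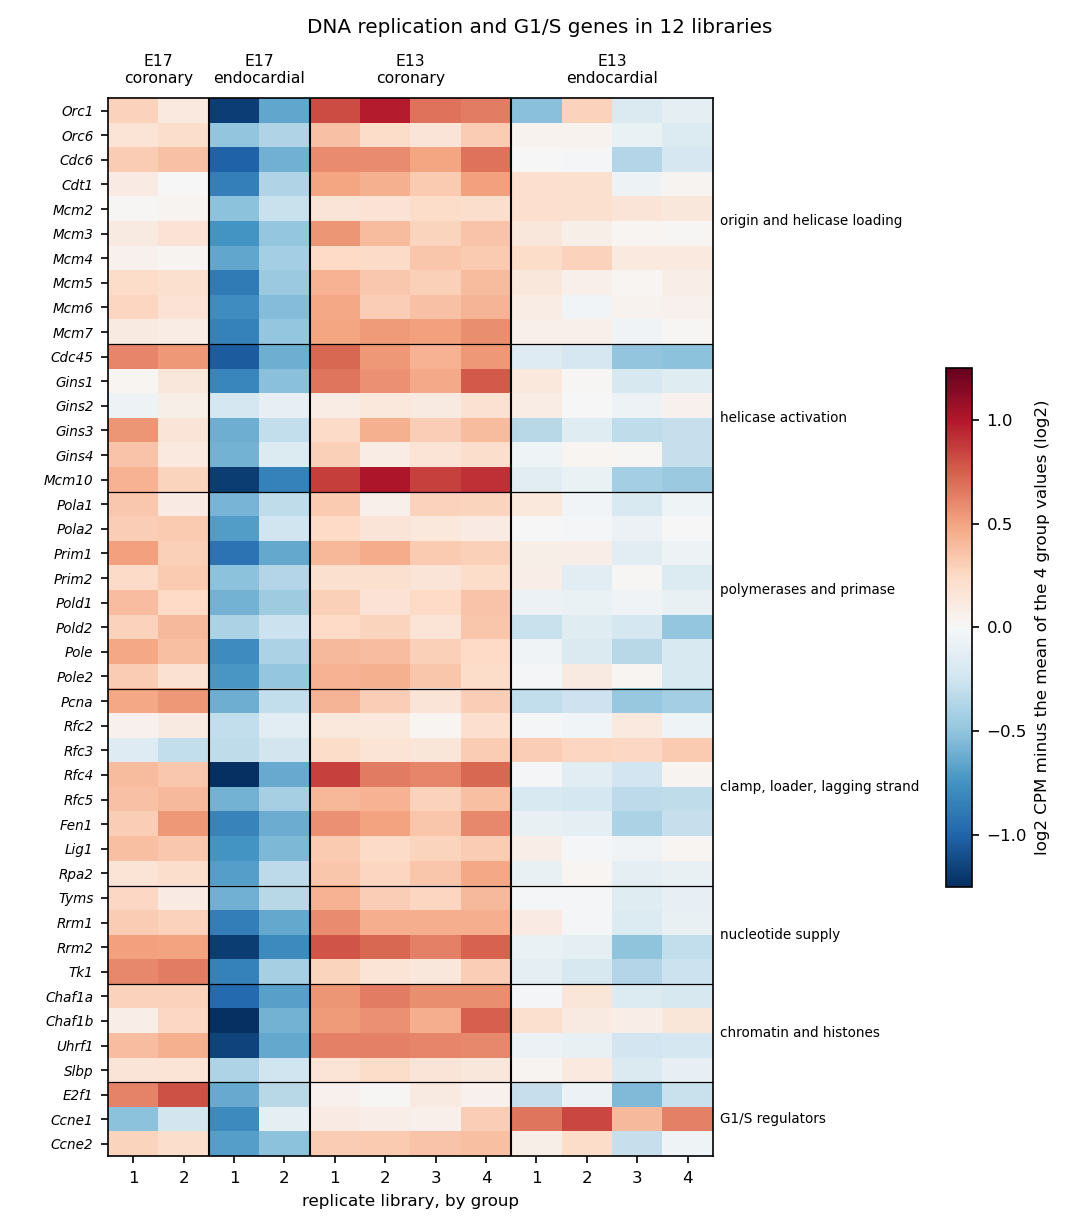
Expression of the 43 members (rows, by role) in the 12 libraries (columns, by group), as log2 CPM minus the mean of the 4 group values, from blue (lower) to red (higher). Both E17 endocardial columns are blue in nearly every row, replicate 1 more than replicate 2, and the coronary columns are mostly red.

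At E17, 40 of the 43 members were higher in coronary than in endocardial libraries and 0 were lower, at an edgeR adjusted p below 0.05 (Benjamini-Hochberg over the 15171 genes tested). The background was 26.5% of all genes higher and 26.1% lower. Of the 43, 36 were also at least 1.5-fold higher, against 15.6% of all genes. The median log2 fold change was 0.85, against -0.01 over all genes. Without E17 endocardial replicate 1 the median over members was 0.74, and without replicate 2 it was 0.97. In 41 members both coronary libraries lay above both endocardial libraries, which held for 37.3% of all genes. The members that did not pass were Gins2, Rfc3 and Ccne1.

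At E13, 36 members were higher in coronary than in endocardial libraries, 1 was lower (Ccne1) and 6 did not pass. Over all genes 30.1% were higher and 29.9% lower. At least 1.5-fold higher were 13 members, against 16.9% of all genes. The median log2 fold change was 0.38, against -0.02 over all genes. All 4 coronary libraries lay above all 4 endocardial libraries in 37 members, which held for 27.6% of all genes. The 6 that did not pass were Mcm2, Mcm4, Gins2, Pola2, Rfc2 and Rfc3.

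**Figure D3:**
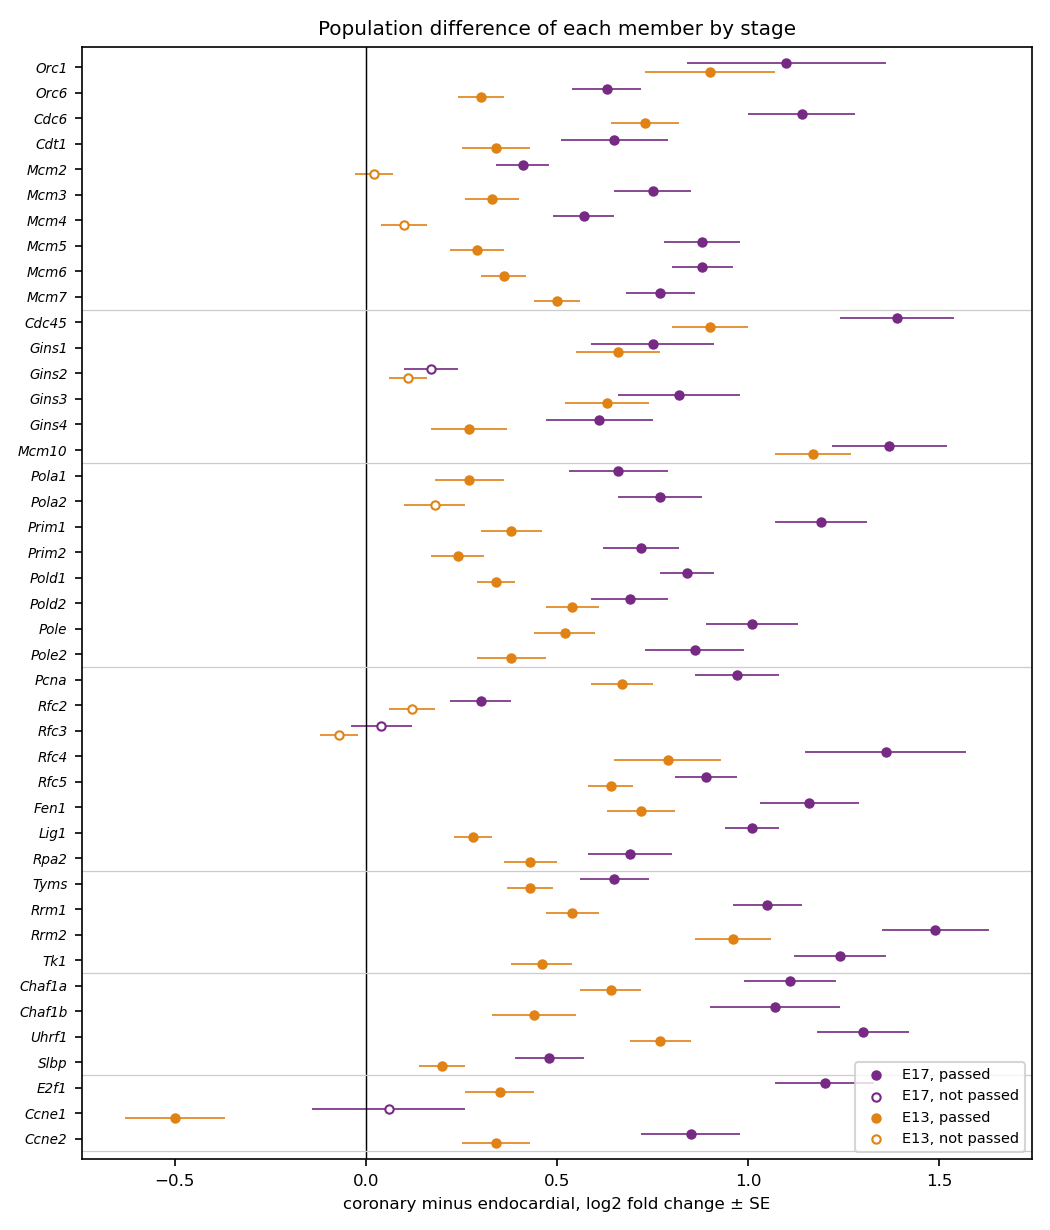
Coronary minus endocardial log2 fold change ± SE of each member at E17 (purple) and E13 (orange), in order of role, with grey lines between roles. Filled points passed an edgeR adjusted p of 0.05 and open points did not, and the purple points lie to the right of the orange ones in every row, with Ccne1 at -0.50 at E13.

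Between the stages, 38 members fell in endocardial cells at E17 relative to E13 and 0 rose, against a background of 15.6% of genes lower and 16.2% higher. The fall reached 1.5-fold in 21 members, against 4.86% of all genes. The median log2 fold change was -0.57, against 0 over all genes, and both E17 libraries lay below all 4 E13 libraries in 38 members, which held for 25.9% of all genes. Those not passing were Gins3, Gins4, Pold2, Pcna and E2f1. In all 43 members, a count not made over all genes, E17 endocardial replicate 1 was below replicate 2. Without it 23 of the falls passed, those of Orc1, Cdc45, Gins1, Gins2, Pola1, Pola2, Pole, Prim2, Rfc2, Rfc5, Fen1, Rpa2, Tk1, Tyms and Slbp did not, and the median over the leave-one-out fits ran from -0.69 to -0.47.

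In coronary cells 12 members were lower at E17 than at E13, 2 were higher and 29 did not pass. The background was 25.6% of genes lower and 24.6% higher, and 12 of 43 members lower was near that share in this fit. The count depended on the scaling, with 24 members lower with library totals only and 19 with upper quartile factors. These 2 settings also moved all genes, whose medians were then -0.17 and -0.08. Of all called genes 32.1% and 41.5% were then higher, against 49% in the main fit. Both E17 libraries lay below all 4 E13 libraries in 23 members, against 30.8% of all genes. The median log2 fold change was -0.13, against -0.02 over all genes. The count of falls moved between 5 and 16 when 1 library was left out, and the 5 were counted without E17 coronary replicate 1 and again without replicate 2. The falls of Orc1, Mcm2, Mcm3, Mcm4, Chaf1a and Chaf1b passed in neither case, that of Ccne1 not without replicate 1 and that of Cdt1 not without replicate 2. Mcm10 and Mcm7 kept their fall under all 20 other settings tried, as E2f1 and Tk1 kept their rise.

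The coronary minus endocardial difference was larger at E17 than at E13 for 22 members and smaller for 0 by the test of that difference in the same edgeR fit, against 16.2% of all genes in the first direction and 16.5% in the second. Its median over the 43 members was 0.44 on the log2 scale, against 0 over all genes. The 22 included 6 of 8 polymerase and primase genes, 6 of 10 helicase loading genes and 3 of 4 genes of nucleotide supply, and 0 of 6 helicase activation genes. With the batch label as a replicate block 26 passed: Cdc45 (edgeR adjusted p = 0.0349), of the helicase activation genes, Slbp (edgeR adjusted p = 0.0426), Pcna (edgeR adjusted p = 0.0312) and Ccne1 (edgeR adjusted p = 0.0356) joined the 22. In this comparison, as in the 2 others with a count of 0, 0 members had the opposite sign in the edgeR fit, so none passed at an unadjusted p below 0.05 in that direction, and DESeq2 also counted 0, as did limma-voom, which was run on this comparison alone. Of the 22, 12 passed under all 20 other settings, and 13 members passed without E17 endocardial replicate 1 and again without E17 coronary replicate 2. The 12 were E2f1, Lig1, Mcm2, Mcm4, Mcm5, Mcm6, Pola2, Pold1, Prim1, Prim2, Rrm1 and Tk1.

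**Figure D4:**
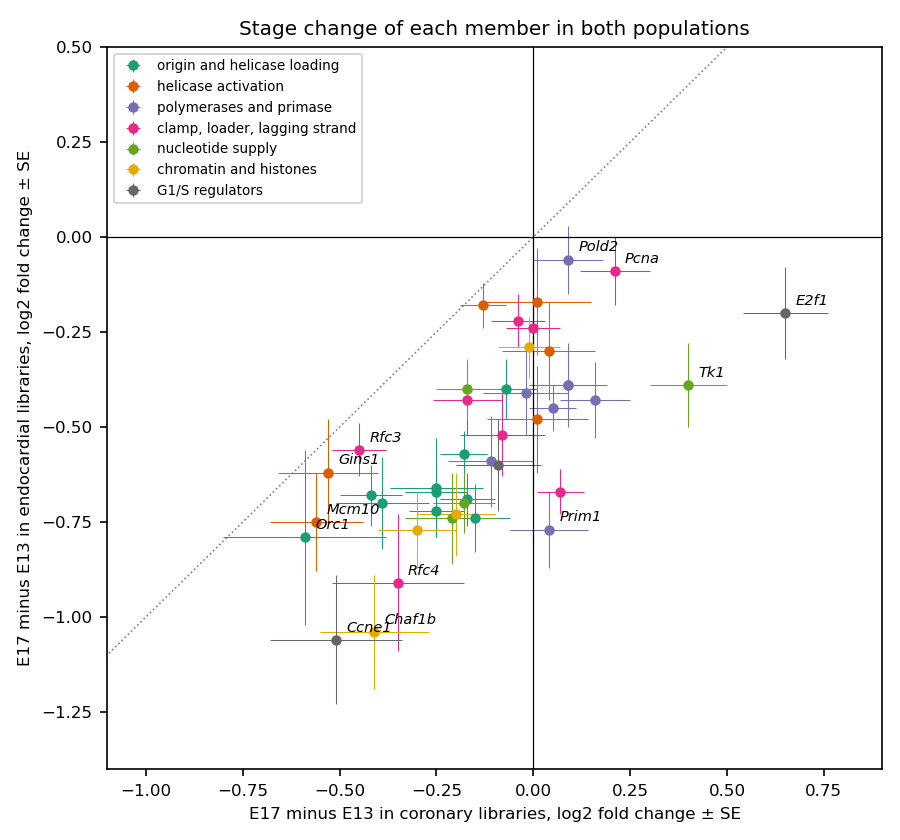
E17 minus E13 log2 fold change ± SE of each member in coronary (x axis) and endocardial libraries (y axis), coloured by role, with selected members named. All 43 points lie below the dotted line of equal change and below 0 on the y axis, and E2f1 (0.65) and Tk1 (0.40) lie farthest to the right.

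Among the helicase loading genes, all 10 were higher in coronary cells at E17 and 8 at E13, and all 10 fell in endocardial cells between the stages. Mcm6, a subunit of the helicase ring and the most abundant gene of this group, had 215 and 202 CPM in E17 coronary libraries and 104 and 123 CPM in E17 endocardial libraries, and at E13 250, 221, 230 and 239 CPM in coronary libraries and 191, 174, 184 and 185 CPM in endocardial libraries. The populations did not overlap at either stage. Its log2 fold change was 0.88 ± 0.08 at E17 (SE, edgeR adjusted p = 3.17e-06) and 0.36 ± 0.06 at E13 (edgeR adjusted p = 0.00022), and the difference between the stages was 0.52 ± 0.10 (edgeR adjusted p = 0.00212).

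Mcm2, another ring subunit, differed between the populations at the later stage. It had 160 and 162 CPM in E17 coronary libraries and 111 and 131 CPM in E17 endocardial libraries. At E13 it had 178, 180, 186 and 185 CPM in coronary libraries and 183, 182, 177 and 175 CPM in endocardial libraries, and the groups overlapped. The log2 fold change was 0.41 ± 0.07 at E17 (edgeR adjusted p = 0.00028) and 0.02 ± 0.05 at E13 (edgeR adjusted p = 0.689). Its stage change was -0.57 ± 0.06 in endocardial and -0.18 ± 0.06 in coronary cells, both past the threshold, though the coronary fall did not pass without E17 coronary replicate 1 (edgeR adjusted p = 0.117) or replicate 2 (edgeR adjusted p = 0.105). Mcm4 had a like order, with 0.57 ± 0.08 at E17, which passed, and 0.10 ± 0.06 at E13, which did not. The other ring subunits, Mcm3, Mcm5 and Mcm7, were 0.75, 0.88 and 0.77 higher on the log2 scale at E17 and 0.33, 0.29 and 0.50 higher at E13.

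Orc1, the largest subunit of the origin recognition complex, was among the members with the largest difference at E13. It had 7.2 and 6.41 CPM in E17 coronary libraries and 2.62 and 3.76 CPM in E17 endocardial libraries, and 10.4, 11.7, 9.43 and 9.23 CPM in E13 coronary libraries against 4.1, 7.21, 5.2 and 5.47 CPM in E13 endocardial libraries, without overlap between populations. These are low values, from 48 to 270 counts a library. The log2 fold change between the populations was 1.10 ± 0.26 at E17 and 0.90 ± 0.17 at E13, and the stage change was -0.79 ± 0.23 in endocardial and -0.59 ± 0.21 in coronary cells. All 4 passed in the fit of all libraries, and the test of the difference between stages did not (edgeR adjusted p = 0.665). Its endocardial fall did not pass without E17 endocardial replicate 1 (edgeR adjusted p = 0.219), nor its coronary fall without either E17 coronary library (edgeR adjusted p = 0.0911 without replicate 1 and 0.206 without replicate 2). Cdc6, which loads the ring together with Cdt1, was 1.14 ± 0.14 higher in coronary cells at E17 and 0.73 ± 0.09 at E13, and Cdt1 0.65 ± 0.14 and 0.34 ± 0.09. Orc6, another subunit of the origin complex, was 0.63 ± 0.09 higher at E17 and 0.30 ± 0.06 at E13.

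In the helicase activation group 5 of 6 members were higher in coronary cells at each stage, and none of the 6 passed the test of the difference between stages in the fit without the batch label. Mcm10, a scaffold that joins the helicase to the polymerases, had the largest difference of all members at E13. It had 24.8 and 22.2 CPM in E17 coronary libraries and 8.08 and 10.2 CPM in E17 endocardial libraries. At E13 it had 33.5, 37.1, 33.1 and 34.6 CPM in coronary libraries and 16.8, 17.3, 13.7 and 13.3 CPM in endocardial libraries. Each coronary library lay above each endocardial one at both stages. The fold change was 2.58 at E17 (log2 1.37 ± 0.15, edgeR adjusted p = 9.47e-06) and 2.25 at E13 (log2 1.17 ± 0.10, edgeR adjusted p = 8.39e-07). Mcm10 fell between the stages in both populations, by 0.75 ± 0.13 in endocardial and 0.56 ± 0.12 in coronary cells on the log2 scale.

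Cdc45, the partner of the ring in the active helicase, did not pass the coronary stage test. It had 36.3 and 34.7 CPM in E17 coronary libraries and 11.6 and 15.6 CPM in E17 endocardial libraries, and 39.2, 34.6, 32.2 and 34.7 CPM in E13 coronary libraries against 21.2, 20.6, 16.9 and 16.7 CPM in E13 endocardial libraries. Each endocardial library lay below each coronary one. The population difference was 1.39 ± 0.15 at E17 (edgeR adjusted p = 1.06e-05) and 0.90 ± 0.10 at E13 (edgeR adjusted p = 1.31e-05), and the coronary stage change was 0.01 ± 0.13. The difference between the stages passed with the batch label as a replicate block (0.50, edgeR adjusted p = 0.0349) and in DESeq2 (DESeq2 adjusted p = 0.0463). The endocardial fall, 0.48 ± 0.14, did not pass without E17 endocardial replicate 1 (edgeR adjusted p = 0.253).

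The GINS subunits differed among themselves. Gins1 had 10.56 and 11.50 CPM in E17 coronary libraries and 5.89 and 7.26 CPM in E17 endocardial libraries, and 16.50, 15.46, 14.37 and 17.66 CPM in E13 coronary libraries against 11.39, 10.52, 9.05 and 9.34 CPM in E13 endocardial libraries. Gins1 fell by 0.53 ± 0.13 in coronary and by 0.62 ± 0.14 in endocardial cells between the stages on the log2 scale, the second not past the threshold without E17 endocardial replicate 1 (edgeR adjusted p = 0.0833). Its populations did not overlap at either stage. Gins2, the most abundant of the group in CPM, passed neither population test. It had 41.8 and 45.8 CPM in E17 coronary libraries and 37.5 and 40.6 CPM in E17 endocardial libraries, and 46.7, 47.9, 47.2 and 49.9 CPM in E13 coronary libraries against 46.6, 43.5, 41.8 and 45.2 CPM in E13 endocardial libraries. The populations lay close together and did not overlap. Its differences were 0.17 ± 0.07 at E17 (edgeR adjusted p = 0.0791) and 0.11 ± 0.05 at E13 (edgeR adjusted p = 0.0719). Of the exon bases of Gins2, 67.3% overlap exons of Gse1 on the opposite strand, and the libraries do not mark strand, so reads of the 2 genes cannot be told apart there. Gins3 and Gins4 were higher in coronary cells at both stages, by 0.82 and 0.61 at E17 and by 0.63 and 0.27 at E13 on the log2 scale. The E13 value of Gins4 did not pass with the batch label as a replicate block (edgeR adjusted p = 0.0572), nor without E13 coronary replicate 1 (edgeR adjusted p = 0.0503), E13 endocardial replicate 1 (edgeR adjusted p = 0.0595) or E13 endocardial replicate 4 (edgeR adjusted p = 0.0984).

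All 8 polymerase and primase genes were at least 1.5-fold higher in coronary cells at E17. At E13, 7 were higher and none reached 1.5-fold. Pold1, the catalytic subunit of polymerase delta and the most abundant of the group, had 96.1 and 87.9 CPM in E17 coronary libraries and 48.9 and 54.2 CPM in E17 endocardial libraries, and at E13 90.5, 83.8, 87.5 and 94.7 CPM in coronary libraries and 70.2, 69.7, 71.7 and 69.1 CPM in endocardial libraries. The populations stood apart at both stages, and the coronary libraries of the stages overlapped. The population difference was 0.84 ± 0.07 at E17 (edgeR adjusted p = 1.49e-06) and 0.34 ± 0.05 at E13 (edgeR adjusted p = 9.06e-05). None of the 8 passed the coronary stage test.

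Prim1, the catalytic primase subunit, which makes the RNA primer, had one of the largest stage differences. It had 38.1 and 32.9 CPM in E17 coronary libraries and 14.1 and 17.1 CPM in E17 endocardial libraries, and 35.5, 36.8, 33.4 and 32.9 CPM in E13 coronary libraries against 28, 28.3, 24.2 and 25.6 CPM in E13 endocardial libraries. The coronary libraries of the 2 stages overlapped, and the endocardial ones did not. The population difference was 1.19 ± 0.12 at E17 and 0.38 ± 0.08 at E13, and the change between them was 0.81 ± 0.14 (edgeR adjusted p = 0.000867). Its partner Prim2 was 0.72 ± 0.10 higher at E17 and 0.24 ± 0.07 at E13. The polymerase alpha genes Pola1 and Pola2 were 0.66 and 0.77 higher at E17, and at E13 their values were 0.27 ± 0.09, which passed, and 0.18 ± 0.08, which did not. Both E13 calls turned on the settings: Pola1 did not pass without E13 endocardial replicate 3 (edgeR adjusted p = 0.0548), and Pola2 passed under 11 of 20 other settings, the batch label as a replicate block among them (edgeR adjusted p = 0.0451). Pole and Pole2, of polymerase epsilon, were 1.01 and 0.86 higher at E17 and 0.52 and 0.38 at E13. Pold2, the accessory subunit of polymerase delta, was 0.69 higher at E17 and 0.54 at E13 and passed neither stage test.

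Pcna, the sliding clamp that holds polymerases on DNA, had the highest level of the members per kilobase of principal transcript in all 4 groups. That level was 204 CPM per kb in E17 coronary and 104 in E17 endocardial libraries, and 176 in E13 coronary and 111 in E13 endocardial libraries. Per library it had 304 and 315 CPM in E17 coronary and 142 and 175 CPM in E17 endocardial libraries, and 292, 268, 243 and 268 CPM in E13 coronary against 175, 181, 156 and 162 CPM in E13 endocardial libraries. The populations did not overlap at either stage. The population difference was 0.97 ± 0.11 at E17 (edgeR adjusted p = 1.09e-05) and 0.67 ± 0.08 at E13 (edgeR adjusted p = 1.02e-05). The stage change was 0.21 ± 0.09 in coronary cells (edgeR adjusted p = 0.0762) and -0.09 ± 0.09 in endocardial cells (edgeR adjusted p = 0.505). The processed copy Pcna-ps2 held 668 counts over the 12 libraries.

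The clamp loader genes ranged from values near 0 to one of the largest. Rfc4 had 17.1 and 16.4 CPM in E17 coronary libraries and 4.69 and 8.43 CPM in E17 endocardial libraries, and 23.5, 20.4, 19.9 and 21.4 CPM in E13 coronary libraries against 12.9, 11.9, 11 and 13.3 CPM in E13 endocardial libraries. E17 endocardial replicate 1 was the lowest library, and the populations did not overlap. The population difference was 1.36 ± 0.21 at E17 (edgeR adjusted p = 0.000134) and 0.79 ± 0.14 at E13 (edgeR adjusted p = 0.000279), and it fell by 0.91 ± 0.18 in endocardial cells. Rfc5 was 0.89 ± 0.08 higher at E17 and 0.64 ± 0.06 at E13. Rfc2 was 0.30 ± 0.08 higher at E17 (edgeR adjusted p = 0.00912), a call lost without E17 endocardial replicate 1 or E17 coronary replicate 2, and 0.12 ± 0.06 at E13 did not pass. Rfc3 passed neither population test, with 0.04 ± 0.08 at E17 and -0.07 ± 0.05 at E13, and fell between the stages in both populations, by 0.45 ± 0.07 in coronary and 0.56 ± 0.07 in endocardial cells. Rfc4 shares 12.7% of its exon bases with the abundant Eif4a2 on the opposite strand.

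Of the genes that finish the lagging strand, Lig1, the ligase that joins Okazaki fragments, was 1.01 ± 0.07 higher in coronary cells at E17 and 0.28 ± 0.05 at E13. Its stage difference had the smallest adjusted p of all members (0.73 ± 0.08, edgeR adjusted p = 4.54e-05). Fen1, the flap endonuclease, was 1.16 ± 0.13 higher at E17 and 0.72 ± 0.09 at E13. Of its exon bases 78.8% overlap Gm10143, which held 225 counts against 9376 for Fen1. Rpa2, of the single-strand binding protein, was 0.69 ± 0.11 higher at E17 and 0.43 ± 0.07 at E13.

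All 4 genes of nucleotide supply were higher in coronary cells at both stages and lower in E17 than in E13 endocardial cells. Rrm2, the regulated subunit of ribonucleotide reductase, had the largest population difference of all members at E17. It had 114 and 113 CPM in E17 coronary libraries and 34.9 and 46 CPM in E17 endocardial libraries, and 137, 131, 123 and 133 CPM in E13 coronary libraries against 75.4, 73, 56.1 and 64.2 CPM in E13 endocardial libraries. The lowest coronary value exceeded the highest endocardial value at each stage. The fold change was 2.81 at E17 (log2 1.49 ± 0.14, edgeR adjusted p = 2.64e-06) and 1.95 at E13 (log2 0.96 ± 0.10, edgeR adjusted p = 3.38e-06). Rrm1, the large subunit of the same enzyme, had 202 and 199 CPM in E17 coronary libraries and 89.4 and 104 CPM in E17 endocardial libraries. At E13 it had 244, 222, 223 and 223 CPM in coronary libraries and 174, 160, 144 and 152 CPM in endocardial libraries, again without overlap. Its difference was 1.05 ± 0.09 at E17 and 0.54 ± 0.07 at E13.

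Tk1, the thymidine kinase of the salvage pathway, was one of the 2 members that rose in coronary cells between the stages. It had 76.9 and 79.4 CPM in E17 coronary libraries and 28.3 and 38 CPM in E17 endocardial libraries, and 61.5, 57.1, 56.2 and 62.8 CPM in E13 coronary libraries against 46.8, 44.3, 39.5 and 42.3 CPM in E13 endocardial libraries. None of the 4 groups overlapped another. It rose by 0.40 ± 0.10 in coronary cells (edgeR adjusted p = 0.00528) and fell by 0.39 ± 0.11 in endocardial cells (edgeR adjusted p = 0.0145), the second not past the threshold without E17 endocardial replicate 1 (edgeR adjusted p = 0.234). The difference between the 2 changes was 0.78 ± 0.15 (edgeR adjusted p = 0.00139). Tyms, which makes thymidylate, was 0.65 ± 0.09 higher in coronary cells at E17 and 0.43 ± 0.06 at E13, and its endocardial fall did not pass without E17 endocardial replicate 1 (edgeR adjusted p = 0.0659).

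The 4 genes of chromatin and histone supply were all higher in coronary cells at both stages, and all 4 fell in endocardial cells. Uhrf1, which brings the maintenance DNA methyltransferase to newly copied DNA, had 144 and 150 CPM in E17 coronary libraries and 49.3 and 70.5 CPM in E17 endocardial libraries, and at E13 170, 170, 168 and 167 CPM in coronary libraries and 105, 103, 93.3 and 94.7 CPM in endocardial libraries. All 4 groups stood apart from each other. Its difference was 1.3 ± 0.12 at E17 (edgeR adjusted p = 2.61e-06) and 0.77 ± 0.08 at E13 (edgeR adjusted p = 7.24e-06). Chaf1b, a subunit of the chromatin assembly factor that places histones behind the fork, had 26.6 and 30.1 CPM in E17 coronary libraries and 10.5 and 16.7 CPM in E17 endocardial libraries, and 36.3, 37.5, 34.5 and 42.2 CPM in E13 coronary libraries against 28.9, 27.3, 26.6 and 27.9 CPM in E13 endocardial libraries. Populations did not overlap at either stage. It fell by 1.04 ± 0.15 in endocardial cells (edgeR adjusted p = 0.000244) and by 0.41 ± 0.14 in coronary cells (edgeR adjusted p = 0.0264), the second not past the threshold without E17 coronary replicate 1 (edgeR adjusted p = 0.176), E17 coronary replicate 2 (edgeR adjusted p = 0.0563) or E13 coronary replicate 4 (edgeR adjusted p = 0.0562). Chaf1a, of the same factor, was 1.11 ± 0.12 higher in coronary cells at E17 and 0.64 ± 0.08 at E13. Of its exon bases 52.5% overlap Ubxn6 on the opposite strand, which held 13233 counts against 10875 for Chaf1a. Slbp, which binds histone messenger RNA, was 0.48 ± 0.09 higher at E17 and 0.20 ± 0.06 at E13, and its endocardial fall did not pass without E17 endocardial replicate 1 (edgeR adjusted p = 0.146).

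The 3 G1/S regulators differed from each other. E2f1, a transcription factor that activates S phase genes, had 45.4 and 51.2 CPM in E17 coronary libraries and 19 and 23.2 CPM in E17 endocardial libraries, and 30.7, 29.8, 31.9 and 30.6 CPM in E13 coronary libraries against 24.1, 28.1, 20.1 and 24.3 CPM in E13 endocardial libraries. Both E17 coronary libraries lay above all other libraries. The population difference was 1.2 ± 0.13 at E17 (edgeR adjusted p = 1.12e-05) and 0.35 ± 0.09 at E13 (edgeR adjusted p = 0.00639). The rise in coronary cells, 0.65 ± 0.11 (edgeR adjusted p = 0.00037), was the largest of the members, and the endocardial change of -0.20 ± 0.12 did not pass (edgeR adjusted p = 0.232). The difference between the 2 changes was 0.85 ± 0.16 (edgeR adjusted p = 0.00173).

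Ccne1 and Ccne2 are the cyclins E, which activate Cdk2 at the start of S phase. Ccne1 had 12.76 and 15.45 CPM in E17 coronary libraries and 10.48 and 16.85 CPM in E17 endocardial libraries, which overlapped. At E13 it had 19.47, 19.27, 19.11 and 22.51 CPM in coronary libraries, all below the 28.86, 32.42, 24.24 and 28.19 CPM of endocardial libraries. It was the 1 member lower in coronary cells at E13, by a log2 fold change of -0.50 ± 0.13 (edgeR adjusted p = 0.00566), and at E17 the value was 0.06 ± 0.20 (edgeR adjusted p = 0.838). It had the largest endocardial fall, 1.06 ± 0.17 on the log2 scale (edgeR adjusted p = 0.000634), while its coronary fall of 0.51 ± 0.17 (edgeR adjusted p = 0.0272) did not pass without E13 coronary replicate 4 (edgeR adjusted p = 0.0586) or without E17 coronary replicate 1 (edgeR adjusted p = 0.2). Ccne2 followed the majority, with 0.85 ± 0.13 at E17 (edgeR adjusted p = 0.000197) and 0.34 ± 0.09 at E13 (edgeR adjusted p = 0.00617), and 17.4% of its exon bases overlap Ints8.

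**Figure D5:**
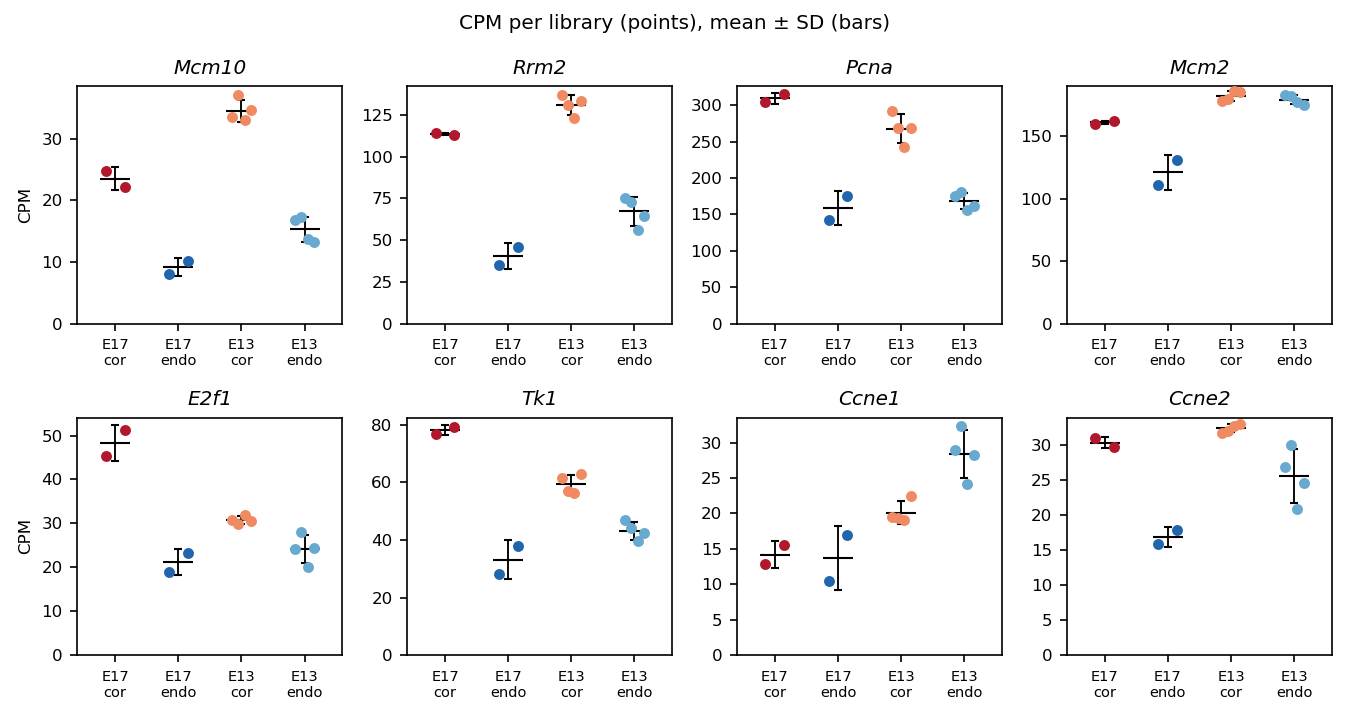
CPM of 8 members in each library (points) with the mean and SD of each group (bars), for E17 coronary (cor), E17 endocardial (endo), E13 coronary and E13 endocardial libraries. E2f1 and Tk1 are highest in E17 coronary libraries, Mcm2 passed the population test at E17 and not at E13, and Ccne1 is highest in E13 endocardial libraries.

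Within batches the order of the populations was the same. Coronary minus endocardial log2 CPM was above 0 for 43 and 41 of 43 members in the 2 E17 batches and for 40, 39, 40 and 41 in the 4 E13 batches, where between 48.5% and 49.5% of all genes were above 0. The medians over members were 1.00 and 0.69 in the E17 batches and 0.39, 0.34, 0.45 and 0.48 in the E13 batches. In all 6 batches 37 members were above 0, and the share of all genes above 0 in all 6 was not computed. The stage comparisons have no value within a batch, since each batch holds 1 stage.

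On the scale of CPM per kb of principal transcript, Mcm2 to Mcm7 ranged from 38.6 (Mcm7) to 71.6 (Mcm6) in E17 coronary and from 22.7 to 39.0 in E17 endocardial libraries. At E13 they ranged from 48.0 (Mcm4) to 80.7 (Mcm6) in coronary and from 36.5 (Mcm7) to 63.1 (Mcm6) in endocardial libraries. Orc1 had 2.26, 1.06, 3.38 and 1.82 CPM per kb in those 4 groups, the lowest of the members in each.

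A further list of 52 other genes of replication and S phase was called mostly in the same directions. At E17 41 were higher and 2 lower in coronary cells, against 26.5% and 26.1% of all genes, and at E13 36 were higher and 4 lower, against 30.1% and 29.9%. Between the stages 38 fell and 1 rose in endocardial cells, against 15.6% and 16.2% of all genes. Their median log2 fold changes were 0.63 at E17 and 0.31 at E13. Dnmt1, the maintenance DNA methyltransferase, averaged 312 ± 2.26 CPM in E17 coronary and 177 ± 22.7 CPM in E17 endocardial libraries (SD, n = 2 each). Top1, a topoisomerase that relaxes DNA ahead of the fork and at transcribed genes, ran the other way, with 172 ± 3.32 CPM in E17 coronary and 277 ± 5.56 CPM in E17 endocardial libraries. The 30 mitosis and G2/M genes were higher in coronary cells at both stages, 30 of 30 each time, with medians of 1.56 at E17 and 0.95 at E13, above the 0.85 and 0.38 of the replication members. The sum of the members divided by the sum of the mitosis genes was 0.853 and 0.866 in E17 coronary and 1.36 and 1.5 in E17 endocardial libraries, and 0.924 to 0.999 in E13 coronary and 1.19 to 1.53 in E13 endocardial libraries.

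Genes that control G1, 29 of 30 tested, were called in both directions. In coronary cells 15 were higher and 7 lower at E17, against 26.5% and 26.1% of all genes, and 12 were higher and 9 lower at E13, against 30.1% and 29.9%, so the counts of lower genes were near the share of all genes. Cdkn1c, an inhibitor of cyclin-dependent kinases, averaged 173 ± 0.853 CPM in E17 coronary and 1779 ± 16.2 CPM in E17 endocardial libraries, and 635 ± 165 CPM in E13 coronary and 3752 ± 114 CPM in E13 endocardial libraries. Ccnd2, a D-type cyclin, was also lower in coronary cells, by a log2 fold change of -2.19 ± 0.14 at E17 and -1.77 ± 0.10 at E13. Cdkn1a, another inhibitor, was higher in coronary cells, by 1.46 ± 0.20 at E17 and 2.39 ± 0.15 at E13. Ccnd1, a further D-type cyclin, averaged 795 ± 128 CPM in E17 coronary and 282 ± 70.3 CPM in E17 endocardial libraries, and at E13 it did not pass (-0.24 ± 0.10). Tfdp1, the DNA-binding partner of E2F factors, was 1.07 ± 0.07 higher in coronary cells at E17 and 0.72 ± 0.05 at E13. Skp2, a ubiquitin ligase subunit that targets Cdkn1b, fell by 1.26 ± 0.09 in endocardial cells between the stages. Cdkn1b itself rose in both populations, by 1.04 ± 0.05 in coronary and 0.51 ± 0.05 in endocardial cells.

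Some markers of other cell types also moved with population, the mural and epicardial sums at both stages and the fibroblast sums at E13. The 7 fibroblast markers summed to 1349 and 2964 CPM in E17 coronary and 1761 and 1914 CPM in E17 endocardial libraries. At E13 they summed to 1195 to 3813 CPM in coronary and 728 to 910 CPM in endocardial libraries. The E17 sums overlapped, with 2 of the 7 markers higher and 2 lower in coronary cells, against 26.5% and 26.1% of all genes. The 8 mural markers summed to 799 and 1000 CPM in E17 coronary and 158 and 162 CPM in E17 endocardial libraries. At E13 they summed to 347 to 638 CPM in coronary and 182 to 201 CPM in endocardial libraries. Of this list, Pdgfrb averaged 102 CPM in E13 coronary and 142 CPM in E13 endocardial libraries, with overlap. The 6 epicardial markers summed to 160 and 161 CPM in E17 coronary and 11.2 and 14.1 CPM in E17 endocardial libraries. At E13 they summed to 81.5 to 93.9 CPM in coronary and 7.08 to 12.3 CPM in endocardial libraries. Wt1, at 119 CPM on average, made up most of the E17 coronary sum. The part of these 3 marker lists in the population differences was not tested. The 9 general endothelial markers summed to 11551 and 13114 CPM in E17 coronary and 8296 and 8520 CPM in E17 endocardial libraries. At E13 the sums were 5841 to 7997 CPM in coronary and 8389 to 9360 CPM in endocardial libraries. At E17, 6 of the 9 were higher and 2 lower in coronary cells, against 26.5% and 26.1% of all genes. At E13, 1 was higher and 6 lower, against 30.1% and 29.9%. Their part in the member differences was not tested either. The 6 leukocyte markers summed to at most 18.9 CPM in any library. The sums of cardiomyocyte and of erythroid markers overlapped between the populations at both stages.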

How the data were processed

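Bulk RNA-seq libraries of 2 sorted endothelial populations at 2 stages were analysed. Per the labels' protocols, polyadenylated RNA from freshly sorted cells (PicoPure isolation) went into NEBNext Ultra libraries, which carry no strand information, and was sequenced as single reads. The authors deposited expected counts per gene, 18.3% of which were not whole. The submitters' processing notes name RSEM 1.2.3, cutadapt 1.3, CASAVA 1.8.2 and build GRCm38, without settings. RSEM assigns ambiguous reads by an estimate, so genes with near-identical copies are uncertain. Genes overlapping on opposite strands share reads that cannot be separated. Besides the overlaps given above, Orc6 shares 6.9% of its exon bases with Vps35, Rfc5 10.7% with Wsb2 and Cdc45 6.0% with Ufd1. Each of these partners held more counts than the member.

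Expected counts were rounded, and filterByExpr with its defaults (minimum count 10, total 15) kept 15171 of 41214 genes, including all 43 members. Groups came from the sample titles. The test was the quasi-likelihood test of edgeR 4.0.16 (R 4.3.3) with TMM factors, 4 group means in 1 fit of 12 libraries, 8 residual degrees of freedom and a common coefficient of biological variation equal to 0.126. P-values were adjusted by Benjamini-Hochberg over all genes tested, with a threshold of 0.05. CPM values use TMM-scaled library sizes, and each SE divides the size of the log2 fold change by the root of its F statistic. Levels per kb divide the group mean CPM by the length of the longest transcript annotated as principal. The script was tested on simulated data. Symbols were matched through GENCODE and RefSeq tables of GRCm38. A protein table was not used here.

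The members and all gene lists were chosen with earlier results of these data known, so the counts of members describe these libraries and are no independent evidence. Values by library are given, per comparison, for the 3 largest rises and falls among members that passed, reached 10 CPM in the higher of the groups and did not overlap between groups, for the member of highest mean among those not passing, and for the one of highest mean in each role. From the other lists, the 3 genes of smallest adjusted p, and the gene of highest mean among those not passing, could be named.

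The batch label pairs 1 coronary with 1 endocardial library. Within a batch, the deviations of both libraries from their group means, over 9481 genes, correlated at 0.38 at E17 and at 0.377, 0.682, 0.367 and 0.478 at E13. Replicates varied beyond what counting would give (chi-square per gene 4.39 to 39.4). Alternatives were other size factors, other filters, only the compared groups, the replicate block, limma-voom (limma 3.58.1), DESeq2 1.42.0 and leaving out each library.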

Additional observations from a re-analysis of the deposited data

Results flagged for a closer look

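For 22 members the coronary minus endocardial log2 fold change differed between the stages by the interaction term of the edgeR fit, each with a larger value at E17 than at E13. The differences were 0.85 (E2f1), 0.81 (Prim1), 0.78 (Tk1), 0.73 (Lig1), 0.63 (Chaf1b), 0.59 (Mcm5 and Pola2), 0.53 (Rrm2 and Uhrf1), 0.52 (Mcm6), 0.51 (Ccne2 and Rrm1), 0.49 (Pold1 and Pole), 0.48 (Prim2), 0.47 (Pole2, Chaf1a and Mcm4), 0.44 (Fen1), 0.42 (Mcm3), 0.39 (Mcm2) and 0.33 (Orc6). Orc6, Pole2 and Fen1 did not pass under 13, 12 and 11 of the 20 other settings. The median over all members, 0.44, was 0.28 without E17 endocardial replicate 1 and 0.57 without replicate 2.

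In 3 of 86 member and group combinations of 4 libraries, 1 library stood apart from the other 3, where chance gives about 1 in 20. Rrm1 had 244 CPM in E13 coronary replicate 1, against 222, 223 and 223 CPM in the others. Ccne1 had 22.5 CPM in E13 coronary replicate 4, against 19.1, 19.3 and 19.5 CPM. Rpa2 had 36.7 CPM in E13 endocardial replicate 2, against 33.3, 33.8 and 33.9 CPM.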

How the results depend on the processing

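Of 4300 values of single members under the alternatives, 4071 kept their direction and side of the threshold, 128 no longer passed, 101 newly passed and 0 reversed. Of the member calls, 39 of 40 at E17 and 35 of 37 at E13 passed under all 20 settings, as did 23 of 38 endocardial falls, 4 of 14 coronary stage calls and 12 of 22 stage differences. Of 400 counts of calls, 384 stayed within 1.5 times the main count.

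The coronary stage comparison depended most on scaling. Members lower there numbered 24 with library totals only and 19 with upper quartile factors, against 12, and members with a larger difference at E17 numbered 14 with library totals only, against 22. Upper quartile factors moved the median of all genes from -0.02 to -0.08 in that comparison, with 41.5% of called genes higher, against 49%. Library totals moved it to -0.17, and of all called genes 32.1% were then higher. At E13, 62.7% of called genes were then higher in coronary cells, against 50.2%, and for the stage difference 37.1%, against 49.7%.

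With the batch label as a replicate block, 40 members were higher at E17, 36 were higher and 1 lower at E13, and 26 had a larger difference at E17. Apart from Gins4 at E13 it lost no population call. In the stage comparisons equal numbers in the titles join libraries of different batches, so samples share only a number. With that number as a replicate block, 1612 genes were higher and 1388 lower in coronary cells at E17, against 3725 and 3879, with 3 members lower; in endocardial cells 38 members were lower.

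Leaving out each library in turn gave 2 to 4 members higher and 5 to 16 lower in the coronary stage comparison, 23 to 38 lower in endocardial cells, and 13 to 32 with a larger difference at E17. In all genes the endocardial stage counts ran from 1578 to 2688 higher and from 1323 to 2523 lower. With 1 library left in an E17 group, that library is assumed to vary like the others.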

Other observations

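Among the replication and S phase genes outside the 43 members, those with the smallest adjusted p in the coronary stage comparison were lower at E17. Nme1, a nucleoside diphosphate kinase, averaged 28.3 ± 2.98 CPM in E17 coronary libraries (SD, n = 2) and 60.6 ± 3.19 CPM in E13 coronary libraries (SD, n = 4). Shmt1, of one-carbon metabolism, averaged 7.81 ± 0.882 CPM in E17 coronary and 16.4 ± 0.926 CPM in E13 coronary libraries, and Dna2, a nuclease and helicase of the lagging strand, 22.6 ± 1.87 CPM and 35.4 ± 3.3 CPM in the same order. In endocardial libraries Cdca7, a chromatin factor, averaged 22.9 ± 0.933 CPM at E17 and 49.1 ± 2.52 CPM at E13, and Nasp, a histone chaperone, 89.8 ± 6.96 CPM at E17 and 160 ± 8.37 CPM at E13. Ticrr, which helps to activate the loaded helicase, averaged 27.5 ± 2.45 CPM in E17 coronary and 9.32 ± 0.754 CPM in E17 endocardial libraries, and 29.9 ± 0.945 CPM in E13 coronary and 17.4 ± 2.59 CPM in E13 endocardial libraries.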
